A study of Mus musculus with 6 samples.

Results

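Dorsal root ganglia, the clusters of sensory neurons and glia beside the spinal cord, were taken from C57BL/6J mouse embryos at embryonic day 12.5, dissociated and grown as neurospheres, which are free-floating balls of dividing cells. The passage 3 spheres, called rNCSC in the labels, were profiled on 3 Affymetrix mouse expression arrays, which are the arrays described here out of 6 in the series. The other 3 arrays hold spheres from the palate of adult mice and were not compared. The members were all arrays whose title begins with rNCSC, and every named gene was read from its brightest probe set, by the mean over these 3 arrays. The culture medium was serum-free and held basic fibroblast growth factor (bFGF) at 20 or 40 ng/ml, EGF at 20 ng/ml, heparin at 0.5 U/ml, N2 at 1% and B27 at 1% or 3%, with glutamine and antibiotics. Which level of bFGF or B27 each culture received is not stated in the labels, and no genetic modification is named. The primary spheres were collected after 5 to 7 days. The submitters describe the cells as reprogrammed in sphere culture and able to form central nervous system (CNS) progeny, including Olig2-positive cells with oligodendrocyte markers. Nothing in the labels says that the 3 arrays came from separate litters, cultures or dissections, so part of the spread between them may be technical, although array 1 differed from the others in sex-linked transcripts, as given below, and so did not hold the same cells. No uncultured ganglion is among the arrays, so levels are given for the culture and no gain or loss over time.

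Dorsal root ganglion cells arise from the neural crest, a migratory population that leaves the dorsal neural tube and forms peripheral neurons, Schwann cells, satellite glia, pigment cells and facial mesenchyme. Crest-derived glia and their precursors are known by the transcription factors Sox10 and Foxd3 and the receptors Ngfr and Erbb3, whereas progenitors of the neural tube are known by Sox1, Sox2, Pax6, Olig2 and region-specific factors. Position along the body axis is recorded in the Hox genes, whose higher-numbered paralogues are used further towards the tail.

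Values are log2 signals, so that a difference of 1 is a 2-fold difference, and n = 3 arrays for every SD. A signal depends on the probe set as well as on the transcript, so orders of genes by signal and medians of lists, given below, describe probe sets and are no measure of relative transcript number. A log2 value of 4 was taken as the floor, since weak probe sets are compressed below it. In bulk RNA, fewer cells of a type and less RNA per cell cannot be told apart. Of 18194 named genes, 10241 (56.3%) were at 4 or more on all 3 arrays, 835 on some and 7118 on none. The mean signal reached 12 in 780 genes, lay from 8 to 12 in 4479 and from 4 to 8 in 5415. The number of arrays limits the precision. The median log2 value of all probe sets was 4.04, 4.04 and 4.03 on arrays 1, 2 and 3, and pairs of arrays correlated at r = 0.989 to 0.994 across probe sets, which are not independent replicates.

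The arrays differed in the transcripts of the sex chromosomes. Xist, the RNA that coats the inactive X chromosome of female cells, was at 12.85, 2.69 and 2.71 on arrays 1, 2 and 3, and its other probe sets showed the same order of array 1 above arrays 2 and 3. The Y-linked gene Kdm5d, a histone demethylase, was at 1.61, 8.61 and 8.43, and Uty, another Y-linked demethylase gene, at 1.73, 8.85 and 8.63. Array 1 therefore carried Xist and neither Y-linked transcript, and arrays 2 and 3 the reverse. Eif2s3y, a Y-linked translation initiation factor gene, was at 2.46, 11.67 and 2.25, so that it reached 4 on array 2 alone. Its other probe set was at 2.50, 3.70 and 2.64, under 4 on every array. The 9 probe sets of the hybridisation controls, which are spiked into each sample before it is put on the array, had mean log2 values of 11.20, 11.66 and 11.02, highest on array 2. The 3′ minus 5′ difference of Gapdh, a sign of RNA integrity, was 0.16, 0.18 and 0.19. Sex-linked genes were kept out of every count of variable genes below.

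All 5 genes used to mark this culture had high signals that varied little. Olig2, a transcription factor of motor neuron and oligodendrocyte progenitors, was at 12.69, 12.65 and 12.91 on arrays 1, 2 and 3 (SD 0.14). Sox2, which maintains neural progenitors, was at 13.76, 13.49 and 13.68 (SD 0.14). Fabp7, a fatty acid carrier made by radial glia, was at 14.80, 14.89 and 14.87 (SD 0.05). Each of these 3 genes is represented by a single bright probe set. Gpm6a, a membrane glycoprotein of neurons and neural progenitors, was at 14.56, 14.61 and 14.43 (SD 0.09), and Bcan, a brain proteoglycan, at 12.93, 13.11 and 13.11 (SD 0.10). Both have a second bright probe set, at 13.88, 14.08 and 13.77 for Gpm6a and at 9.77, 9.95 and 10.46 for Bcan. No array stood apart from the others in any of the 5 genes by as much as 1 log2. Over all autosomal genes with a mean of 12 or more the median range was 0.134. The low spread is thus not particular to these 5 genes.

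The brightest signals were those of the protein-making machinery and of a few neural genes. Among the 100 genes with the highest mean, 26 encode ribosomal proteins, 16 RNA-binding and splicing proteins and 10 mitochondrial respiration or related proteins. The last class was drawn by gene name and takes in the malate dehydrogenases Mdh1 and Mdh2 and the ADP/ATP carriers Slc25a4 and Slc25a5. Another 4 encode chaperones, 4 translation factors and 4 tubulins or actins, and 36 fall in none of these classes. The 20 highest were Rps29, Rps20, Rps28, Rpl35, Vim, Fabp7, Rpl13a, Rplp0, Hmgn1, Ran, Rplp2, Hspa8, Rpl37a, Rps18, Rps9, H2az1, Dbi, Ptn, Cct6a and Hint1. Vim, the intermediate filament of progenitors and mesenchyme, was at 14.81, 14.92 and 14.84. Ptn, a secreted heparin-binding growth factor, was at 14.53, 14.80 and 14.49, and Dbi, an acyl-CoA binding protein of glia and progenitors, at 14.60, 14.70 and 14.53. With ribosomal, translation, tubulin and actin genes set aside, the next in order were Gpm6a, Hmgcs1, Qk, Tpt1, Marcks, Naca, Snrpg, Akr1a1, Cfl1 and Ywhaq. Hmgcs1, an early enzyme of cholesterol synthesis, was at 14.54, 14.45 and 14.51, and Qk, an RNA-binding regulator of glial splicing, at 14.44, 14.54 and 14.50. The widest range among the 100 genes was 0.50 log2 and the median 0.10. The range falls with the signal at the top of the scale, with a median of 0.134 over all autosomal genes with a mean of 12 or more, so the small ranges are not particular to these genes. The order is that of probe sets and not of transcripts, and 27 of the 100 were again among the 100 highest when probe sets that can read several transcripts were left out, and 46 when all probe sets of a gene were averaged.

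Genes of CNS neural stem and progenitor cells were detected almost throughout the list. Of 29 measured, 27 were at 4 or more on all 3 arrays, against 56.3% of all genes, and their median mean signal was 10.24. All 14 structural, binding and membrane proteins and 13 of 15 transcription factors were among the 27. Sox1, a factor specific to neural tube progenitors, was at 7.79, 8.58 and 9.15, lowest on array 1. Pax6, a factor of radial glia and ventral progenitors, was at 8.70, 9.07 and 9.34, Sox3 at 10.30, 9.76 and 10.58 and Sox21 at 10.25, 9.93 and 10.55. These 3 genes lay within 1 log2 on the arrays. Pou3f3, a POU factor of neural progenitors, was at 11.50, 11.72 and 11.70, and Zic1, a zinc finger factor of the dorsal neural tube and cerebellum, at 12.54, 13.38 and 13.17. Rfx4, a winged-helix factor of the neural tube, was at 10.97, 11.82 and 11.37, with the highest value on array 2. Nr2e1, a nuclear receptor of forebrain stem cells, was under 4 throughout, at 2.94, 2.70 and 2.72, and Zic4 passed 4 on array 2 alone.

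Effector genes of neural progenitors followed. Slc1a3, the glial glutamate transporter, was at 13.18, 13.66 and 13.52, and Ptprz1, a receptor phosphatase of radial glia, at 13.36, 13.28 and 13.58. Nes, the intermediate filament nestin, was at 9.51, 9.60 and 10.21, and Cd24a, a surface glycoprotein, at 12.93, 13.24 and 13.17. All 4 stayed within 1 log2. Prom1, a membrane protein of progenitor protrusions, was at 9.43, 7.64 and 9.35, low on array 2. Hopx, a homeodomain protein of radial glia, was at 9.11, 9.27 and 8.18, low on array 3, and Id4, an inhibitor of differentiation factors, at 5.02, 7.48 and 5.30, high on array 2. In all, 5 of 25 autosomal genes of the list with a mean of 4 or more ranged over at least 1 log2. Across all such autosomal genes that share was 7.64% (786 of 10282), and across those at 4 or more on all arrays 6.85% (676 of 9867).

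Of the oligodendrocyte lineage, early factors had high signals and most myelin genes were under the floor. Of 26 measured genes, 15 were at 4 or more on all arrays, a share close to the 56.3% of all genes, and they were unevenly spread over the roles: 5 of 8 transcription factors, 7 of 9 progenitor and premyelinating proteins, and 3 of 9 myelin and mature cell proteins. Olig1, the partner of Olig2, was at 13.15, 13.45 and 13.34, and Sox8 at 10.87, 10.89 and 10.95. Sox10, which activates myelin genes in oligodendrocytes and Schwann cells, was at 3.85, 3.83 and 3.45 and so under 4 on every array. The submitters name it as a marker of the progeny these cells can form. Myrf, the switch to myelination, was also under 4, at 3.60, 3.48 and 3.44. Mog, Mag, Mobp and Opalin, all myelin proteins, had means from 2.93 to 3.55, and Mbp was at 4.48, 3.65 and 4.08. Of the myelin and mature cell genes, Ugt8a was at 8.86, 7.85 and 6.51 and Cldn11 at 6.04, 5.50 and 4.87. Aspa, at 4.52, 4.96 and 4.63, was also at 4 or more on all arrays. Cnp, another myelin protein gene, was not among the 9 counted in that role and was at 11.39, 10.89 and 10.72. Its other bright probe sets were at 6.55, 6.09 and 6.02 and at 6.13, 6.02 and 5.73.

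Several genes of oligodendrocyte progenitors were highest on array 1. Pdgfra, the growth factor receptor of these progenitors, was at 8.94, 5.97 and 5.13 on arrays 1, 2 and 3 (SD 2.00), with its second probe set at 5.52, 4.87 and 4.75. Nkx2-2, a ventral neural tube factor that also acts in this lineage, was at 7.27, 4.05 and 4.44 (SD 1.76), and Cspg4, the NG2 proteoglycan, at 8.90, 6.32 and 7.93. Array 1 was highest for these 3 genes, and arrays 2 and 3 differed in order between them. Omg, a surface glycoprotein of oligodendrocytes and neurons, was at 8.40, 4.81 and 6.62, and Lhfpl3, a membrane protein of these progenitors, at 12.16, 10.07 and 10.87. Of the 9 genes of the list that ranged over at least 1 log2, out of 16 autosomal genes with a mean of 4 or more, array 1 was highest in 7. Among all 786 such variable genes array 1 was highest in 327, array 2 in 314 and array 3 in 145. The summed signal of the list, which its brightest probe sets dominate, did not share the pattern. On the scale of log2 of the summed linear signals, the progenitor and premyelinating proteins stood at 13.68, 13.66 and 12.74 on arrays 1, 2 and 3. The whole list stood at 14.96, 15.03 and 14.76. Olig1 and Olig2 did not share it either, with ranges of 0.31 and 0.27. Cntn1, an adhesion molecule, was highest on array 2 at 12.12, 13.24 and 11.40, and Bcas1, a marker of premyelinating cells, on array 3 at 6.83, 6.74 and 7.74.

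Astrocyte and radial glial genes were at 4 or more on all arrays in 21 of 26 cases, against 56.3% of all genes. All 6 transcription factors were among the 21. Nfib, a factor that starts gliogenesis, was at 12.04, 12.38 and 12.28, and Nfia at 9.72, 10.17 and 10.29. Glul, glutamine synthetase, was at 12.15, 13.11 and 12.23, and Gja1, the gap junction protein connexin of astrocytes, at 12.19, 12.93 and 12.51. Gfap, the filament of mature astrocytes, was under 4 throughout at 3.10, 3.16 and 3.17, as were Gjb6 at 3.03, 3.12 and 3.35 and Ntsr2 at 3.84, 3.79 and 3.87. Sparcl1, a secreted astrocyte protein, was at 11.22, 12.91 and 11.30, and S100b, a calcium-binding protein, at 6.04, 7.82 and 5.82, both highest on array 2. Mlc1, a membrane protein of astrocyte endfeet, was at 9.11, 10.90 and 10.66, lowest on array 1. Sox9, a glial and crest factor, was at 9.77, 8.75 and 8.97, highest on array 1. The 9 variable genes of the list, of 22 with a mean of 4 or more, shared no single pattern: array 1 was highest in 3, array 2 in 4 and array 3 in 2. Among 12 genes of CNS extracellular matrix, 7 were at 4 or more on all arrays, a share close to the 56.3% of all genes. Ncan, a brain proteoglycan, was at 12.11, 12.22 and 12.17 and Tnc, the matrix protein tenascin C, at 12.94, 12.72 and 13.24. Acan, Hapln1, Hapln2 and Hapln4, components of mature perineuronal matrix, were under 4.

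Neuronal genes were divided. Of 34 measured, 18 were at 4 or more on all arrays, a share close to the 56.3% of all genes, and transmitter genes were nearly all under it: Slc17a6, Slc17a7, Gad2, Th, Chat and Slc6a5 had means from 2.64 to 3.17. Sox4 and Sox11, factors of newborn neurons and of progenitors, were at 14.11, 14.05 and 14.10 and at 12.53, 12.46 and 12.59. Map2, a dendritic cytoskeletal protein also made in glial progenitors, was at 13.77, 13.58 and 13.69. These 3 genes hardly moved between arrays, while most markers of neuronal commitment did. Signal level differs between them too. Of all autosomal genes, 0.813% ranged over at least 1 log2 at a mean of 12 or more, and 11.9% at 6 to 8. Insm1, a factor of dividing neuronal precursors, was at 8.73, 5.95 and 6.33, Neurod4 at 8.39, 6.23 and 6.35 and Gap43, a growth cone protein, at 11.46, 9.35 and 10.19. Elavl4, a neuronal RNA-binding protein, was at 11.15, 9.99 and 10.53, and Tubb3, the neuronal tubulin, at 7.34, 6.55 and 6.03. Of 19 autosomal genes of the list with a mean of 4 or more, 10 were variable, against 7.64% of all such genes. Array 1 was highest in 8 of the 10 and lowest in none. Among all 786 variable genes array 1 was highest in 327 and lowest in 251. Neurod1 was highest on array 3 at 7.98, 7.10 and 8.17 and Gad1, which makes the transmitter GABA, on array 2 at 5.37, 6.14 and 4.72. The higher values of these genes on array 1 moved together with those of Pdgfra, Nkx2-2 and Cspg4 and with Xist, and what links them was not tested.

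Sensory and autonomic neuron genes, which would mark the ganglion of origin, were mostly under the floor. Of 18 measured, 4 were at 4 or more on all arrays, against 56.3% of all genes, and no transcription factor was among these 4. Isl1, the factor of sensory and motor neurons, was at 3.31, 3.24 and 3.03, and Pou4f1, which is shared by all sensory neurons, at 4.46, 4.02 and 3.69, so that it reached 4 on arrays 1 and 2. Trpv1 and Scn10a, channels of pain-sensing neurons, had means of 2.87 and 2.93. The 4 were Ntrk2 and Ntrk3, neurotrophin receptors that CNS glia and progenitors also carry, at 8.17, 8.02 and 8.27 and at 7.99, 8.48 and 8.07, Prph, a peripheral neurofilament, at 4.69, 4.91 and 4.65, and Dbh, the enzyme that makes noradrenaline, at 4.67, 4.69 and 4.42. Tac1, the substance P precursor, reached 4 on array 1 alone, at 6.15, 3.37 and 3.77.

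Several defining genes of peripheral glia and neural crest were likewise under the floor. Of 18 Schwann cell and satellite glia genes, 8 were at 4 or more on all arrays, against 56.3% of all genes, and Sox2 and Fabp7, shared with CNS progenitors, were among them. Foxd3, the early crest factor, was at 2.89, 2.83 and 3.07, Ngfr, the low-affinity neurotrophin receptor by which crest cells are sorted, at 3.62, 3.58 and 3.52, and Erbb3, the neuregulin receptor of Schwann cells, at 3.16, 3.00 and 2.88. With Sox10, all 4 were under 4 on each array. Cdh19, a cadherin of Schwann cell precursors, was present at 8.47, 6.33 and 7.34, lowest on array 2, and Pmp22, a peripheral myelin protein made in many tissues, at 7.72, 10.11 and 7.93, highest on array 2. Egr2, a factor of Schwann cells and of the hindbrain that is also induced by growth factors, was at 6.42, 5.41 and 6.43. Of 27 neural crest genes, 12 were at 4 or more on all arrays, again against 56.3%. Among them were Ednrb, the endothelin receptor, at 12.10, 11.62 and 12.002, Ets1 at 11.01, 11.26 and 10.74, Id2 at 13.68, 13.57 and 13.32 and Myc at 9.55, 9.18 and 10.06, none of which is restricted to crest.

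Crest factors that differed between arrays did so in several ways. Pax3, a factor of dorsal neural tube and crest, was at 6.76, 4.68 and 7.73, lowest on array 2. Tfap2b, a crest factor, reached 4 on array 1 alone, at 5.37, 2.69 and 2.52. Twist1, a factor of crest mesenchyme, reached 4 on array 2 alone, at 2.67, 5.84 and 2.52. Snai1, Snai2, Pax7, Msx2 and Wnt1 were under 4 on every array.

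Marker genes of other cell types were mostly under the floor. Over 9 lists and 82 measured genes, 12 were at 4 or more on all arrays, against 56.3% of all genes. In 66 no array reached 4, and the median mean signal was 3.11. Counts on all arrays were 0 of 12 for macrophages, microglia and other leukocytes, 0 of 6 for erythroid cells, 1 of 10 for endothelial and mural cells, 1 of 6 for melanocytes, 1 of 8 for skeletal muscle, 3 of 10 for epithelium and 2 of 10 for pluripotent cells. Mesenchymal genes gave 2 of 12 and meningeal genes 2 of 8. The collagen gene Col1a1, the most typical fibroblast transcript, was at 3.13, 2.90 and 3.18, the leukocyte antigen gene Ptprc at 2.69, 2.76 and 2.72 and the endothelial gene Pecam1 at 2.58, 2.50 and 2.54. The genes that passed belonged also to neural cells in part, as with Ptgds, the prostaglandin D synthase of meninges and oligodendrocytes, at 9.28, 9.80 and 9.80, and Mitf, a factor of pigment cells, at 6.46, 5.83 and 6.20. Foxc1, a factor of meninges and mesenchyme, was at 4.31, 8.02 and 6.45, and Fn1, fibronectin, at 4.81, 7.01 and 6.16, both lowest on array 1. Prrx1, a mesenchymal homeodomain factor, was at 7.04, 5.04 and 7.58, lowest on array 2. On the scale of log2 of the summed linear signals, the mesenchymal list stood at 7.90, 8.22 and 8.40 on arrays 1, 2 and 3, and the meningeal list at 9.45, 10.25 and 10.01.

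**Figure D1:**
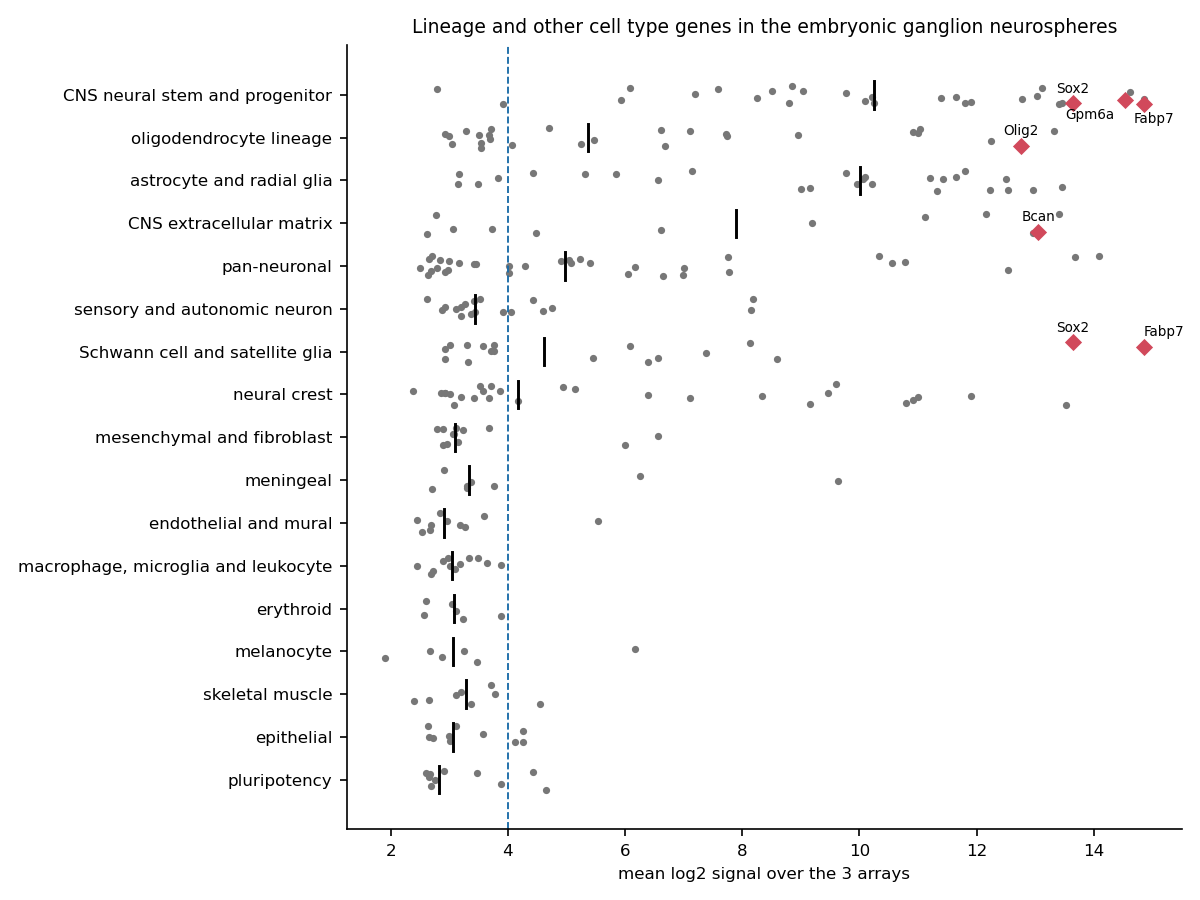
Mean log2 signal over the 3 arrays (horizontal axis) of each measured gene of the lineage lists and of the lists for other cell types; each grey point is a gene, the vertical placing within a row carries no meaning, black bars are list medians, red diamonds are the 5 marker genes and the dashed line is the floor of 4. The median of the CNS neural stem and progenitor list is 10.24, and the 9 lists for other cell types have medians from 2.83 to 3.33.

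Regional factors of the forebrain were mostly under the floor and those of the hindbrain were above it. Of 19 measured forebrain factors, 2 were at 4 or more on all arrays, against 56.3% of all genes. Otx2, the factor that specifies forebrain and midbrain, was at 2.47, 2.59 and 2.33. The 2 were Lhx2, a factor of cortex and retina, at 7.38, 5.11 and 7.38, and Vax1, at the floor with 4.03, 4.22 and 4.01. Emx2, a factor of the cortex and also of other tissues, was at 2.62, 6.11 and 4.97 and passed 4 on arrays 2 and 3. All 8 measured hindbrain factors were at 4 or more on all arrays, but most are shared with the spinal cord. Nr2f1, a nuclear receptor, was at 12.58, 12.72 and 12.64, Pbx3, a Hox cofactor, at 12.24, 12.47 and 12.39, and Meis1, another cofactor, at 10.82, 10.18 and 10.97. Irx2, a factor of the cerebellar and hindbrain field, was at 6.14, 6.26 and 7.39, highest on array 3.

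Several factors of the midbrain-hindbrain boundary differed widely between arrays. No measured gene of the 10 was at 4 or more on all arrays, against 56.3% of all genes. En2, which patterns midbrain and cerebellum, was at 3.84, 9.42 and 7.17 on arrays 1, 2 and 3 (SD 2.80), a range of 5.42 log2 with array 1 set to the floor. En1 was at 2.52, 5.50 and 2.80 and Pax8, which acts beside En1 at the boundary, at 2.59, 5.01 and 2.80, each passing 4 on array 2 alone. Gbx2, the hindbrain factor that sets the boundary, was at 5.99, 9.17 and 7.19, and Cnpy1, a near neighbour of En2 on chromosome 5 and known from boundary FGF signalling, at 2.83, 7.21 and 6.68. In the brightest probe set of all 5 genes array 2 was highest, and among all 786 variable genes it was highest in 314. Another bright Cnpy1 probe set was highest on array 3, at 3.00, 5.51 and 5.64. Gbx2 and Cnpy1 are not among the 10 genes of the list, and Cnpy1 was chosen after its values were seen. Fgf8, Wnt1, Pax5 and Lmx1b, which organise the boundary, were under 4 on all 3 arrays.

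Dorsal spinal cord factors were at 4 or more on all arrays in 5 of 18 cases, against 56.3% of all genes. These were Zic1, Zic2, Zic5, Pax3 and Msx1. Zic2 was at 5.09, 7.14 and 6.93 and Zic5 at 6.58, 9.40 and 8.60, lowest on array 1, whereas Pax3 was lowest on array 2. Proneural factors of dorsal domains, Atoh1, Neurog1, Ptf1a, Gsx1 and Gsx2, were under 4 throughout, and Neurog2 was at 4.12, 3.31 and 4.63. Intermediate and ventral factors were at 4 or more on all arrays in 7 of 15 cases, against the same 56.3%. Irx3 and Irx5, which are used in the intermediate neural tube, were at 6.93, 7.68 and 7.37 and at 8.08, 7.95 and 8.38, and Prdm8 at 8.14, 7.84 and 8.27. Besides Nkx2-2, the ventral factors Dbx2 and Nkx6-1 were higher on array 1, at 6.51, 3.60 and 3.81 and at 4.57, 2.88 and 2.84, where each passed 4 only there. Shh, the ventral signal, and Foxa2, the floor plate factor, were under 4, as were 16 of 18 factors of postmitotic spinal neurons on every array, with 0 at 4 or more on all. Mnx1, the motor neuron factor, was at 2.52, 2.47 and 2.23, and Lhx1, a factor of interneurons, at 3.18, 3.26 and 3.07.

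Most measured Hox genes of paralogues 1 to 10 were above the floor, and those of paralogues 11 to 13 were under it. Of 33 measured, 18 were at 4 or more on all arrays, a share close to the 56.3% of all genes, 5 on some and 10 on none. The count was 9 of 13 for paralogues 1 to 5, 5 of 6 for paralogues 6 to 8, 4 of 7 for paralogues 9 to 10, and 0 of 7 for paralogues 11 to 13, whose means lay from 2.62 to 3.26. Cluster A gave 6 of 9, cluster B 6 of 9, cluster C 3 of 7 and cluster D 3 of 8. Without array 1 the count for cluster C was 5. Hoxa5, a cervical paralogue, was at 11.15, 10.68 and 10.89, Hoxb3 at 10.37, 11.30 and 10.76 and Hoxc8, a thoracic paralogue, at 9.76, 11.04 and 10.18. Hoxb6 was at 8.20, 8.29 and 8.43. Hoxb1, which is used in the fourth hindbrain segment, was under 4 at 2.11, 2.15 and 2.10, as was Hoxd1 at 2.51, 2.80 and 2.56.

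Paralogues 9 and 10, which pattern the lower thoracic and lumbar levels, differed widely between arrays. All 7 measured genes of paralogues 9 to 10 ranged over at least 1 log2, with a median range of 3.04, against 7.64% of autosomal genes with a mean of 4 or more and a median range of 0.30. In paralogues 1 to 5, 2 of 9 genes with a mean of 4 or more did, and in paralogues 6 to 8, 2 of 5. Hoxa10 was at 8.90, 11.94 and 10.63 on arrays 1, 2 and 3 (SD 1.53), Hoxc10 at 2.51, 9.11 and 5.32 (SD 3.31) and Hoxd10 at 2.36, 8.99 and 2.33 (SD 3.84). Array 2 was highest in all 3, and Hoxd10 was under 4 on both other arrays. Hoxb9 was at 6.61, 8.99 and 8.42, Hoxc9 at 3.08, 6.68 and 6.32, Hoxd9 at 4.75, 8.37 and 4.64 and Hoxa9 at 10.70, 12.66 and 13.001. Array 1 was lowest in 5 of the 7, and among all 786 variable genes it was lowest in 251. In the other pair, Hoxd9 and Hoxd10, array 3 was lowest by little, since arrays 1 and 3 were close together in each gene. Of the 7, 4 were at 4 or more on all arrays: Hoxa9, Hoxa10, Hoxb9 and Hoxd9. Hoxb5os, an RNA from the opposite strand of the B cluster, was at 8.22, 11.85 and 9.27, with array 2 again highest. Hoxa7 ran the other way, at 8.53, 6.34 and 7.31, with array 2 lowest. Neighbouring Hox genes can share transcripts and the arrays cannot separate overlapping ones.

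**Figure D2:**
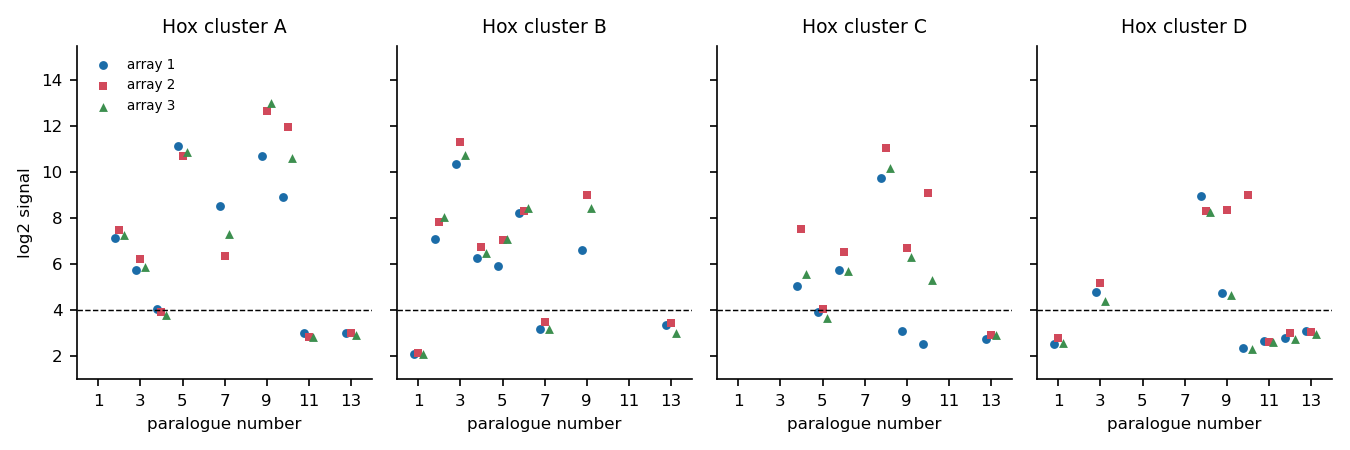
Log2 signal (vertical axis) of each measured Hox gene against its paralogue number, in a panel per cluster, with a marker per array and the floor of 4 as a dashed line. In paralogues 9 and 10 the array 2 squares lie above the array 1 circles in all 4 clusters, and paralogues 11 to 13 stay under 4 on every array.

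Hoxd9 and Hoxd10 are neighbours on chromosome 2, were high together on array 2, and are shown here by their promoters. The RefSeq windows (GRCm38.p6, plus strand, 250 bases before to 50 after the start) are chr2:74691641-74691940 for Hoxd10 and chr2:74697513-74697812 for Hoxd9, with the CG dinucleotides, the sites of DNA methylation in mammals, in capitals. The Hoxd10 window held 22 and the Hoxd9 window 20, against a median of 7 over 32851 promoters of the same length, of which 26.5% held at least 20 and 94.6% at least 1. No methylation was measured.
Hoxd10: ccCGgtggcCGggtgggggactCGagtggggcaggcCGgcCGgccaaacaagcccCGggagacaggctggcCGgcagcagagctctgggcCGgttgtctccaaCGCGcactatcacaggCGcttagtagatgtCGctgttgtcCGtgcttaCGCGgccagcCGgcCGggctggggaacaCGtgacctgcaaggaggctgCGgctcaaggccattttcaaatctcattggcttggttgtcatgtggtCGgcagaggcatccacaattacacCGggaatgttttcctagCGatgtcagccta
Hoxd9: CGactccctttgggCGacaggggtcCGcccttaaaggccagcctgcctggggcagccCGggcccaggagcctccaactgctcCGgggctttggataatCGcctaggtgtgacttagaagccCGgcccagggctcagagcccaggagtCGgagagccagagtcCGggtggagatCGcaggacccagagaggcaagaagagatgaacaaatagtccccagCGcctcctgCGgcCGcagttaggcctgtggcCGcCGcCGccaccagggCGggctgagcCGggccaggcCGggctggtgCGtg

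Fgfr1, Fgfr2, Fgfr3 and Egfr, receptor genes for the growth factors in the medium, were at 4 or more on all arrays. Of 9 FGF and EGF receptor genes 5 were, a share close to the 56.3% of all genes. Fgfr1, the main bFGF receptor, was at 9.27, 9.997 and 9.92 and Fgfr2 at 5.58, 6.48 and 4.98, the latter highest on array 2. Fgfr3, the receptor of ventricular zone glia, was at 10.49, 8.63 and 10.17 (SD 1.00), lowest on array 2. Egfr was at 10.82, 11.34 and 11.93, highest on array 3, and its other bright probe sets gave the same order, at 8.29, 8.93 and 9.78 and at 5.41, 5.82 and 6.18. Fgfrl1, a decoy-like FGF receptor, was at 9.09, 9.45 and 9.23. Fgfr4, Erbb3 and Erbb4, the last a neuregulin receptor, were under 4 on all arrays, and Erbb2, their partner, was at 3.86, 3.98 and 4.27. All 3 insulin and IGF receptor genes were at 4 or more: Insr at 8.49, 8.64 and 8.72, Igf1r at 8.22, 8.04 and 8.22 and Igf2r at 6.47, 8.03 and 7.04, of which Igf2r, a clearance receptor, varied with array 2 highest.

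Genes that respond to FGF and ERK signalling were high, and part of them varied with the array. Of 11 feedback genes, 10 were at 4 or more on all arrays, against 56.3% of all genes. Dusp6, a phosphatase that switches ERK off, was at 13.20, 13.37 and 13.39, Spry2, a feedback inhibitor, at 12.06, 12.26 and 12.18, Etv5, a transcription factor downstream of FGF, at 11.91, 12.13 and 12.20, and Spred1 at 11.31, 11.43 and 11.35. These 4 lay within 1 log2. Il17rd, an FGF inhibitor, was at 8.27, 10.45 and 9.71, Dusp4 at 8.01, 10.18 and 9.39 and Spry1 at 8.42, 9.73 and 8.995, with array 1 lowest and array 2 highest in each. Etv4 ran otherwise, at 7.20, 6.08 and 7.13, with array 2 lowest. The bFGF level of each culture is not assigned in the labels, so its relation to these values was not tested.

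Among 33 other receptor tyrosine kinase genes, 18 were at 4 or more on all arrays, a share close to the 56.3% of all genes. Besides Pdgfra, Ddr1, a collagen receptor, was at 11.31, 11.64 and 11.59, Epha5, an ephrin receptor, at 10.86, 10.93 and 11.06, and Ryk, a Wnt co-receptor, at 8.81, 8.93 and 8.72. All 3 were stable. Epha4 was at 7.78, 5.67 and 6.56, highest on array 1, and Epha7 at 6.74, 8.58 and 6.75, highest on array 2. Kit, the stem cell factor receptor of melanoblasts and other progenitors, was at 5.80, 4.98 and 4.05. Ddr2, another collagen receptor, reached 4 on array 3 alone, at 3.85, 3.87 and 5.97. Pdgfrb, Kdr, Tek, Csf1r and Ret, the receptors of pericytes, endothelium, myeloid cells and sensory or enteric neurons, had means from 2.67 to 3.34.

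Of 10 co-receptors for neurotrophins, GDNF and gp130 cytokines, 5 were at 4 or more on all arrays, against 56.3% of all genes. Lifr, the receptor for leukaemia inhibitory factor, was at 10.52, 11.71 and 11.13, and its signalling partner Il6st at 7.58, 7.26 and 7.55. Gfra1, the GDNF co-receptor, was at 7.95, 7.89 and 7.72, and Gfra2, the neurturin co-receptor, at 7.51, 9.55 and 9.11, lowest on array 1, while Ret, through which both signal, was under 4. Of 13 BMP and TGF-beta receptor genes, 8 were at 4 or more on all arrays, also near that share. Bmpr1a was at 11.07, 11.11 and 11.17 and Bmpr2 at 12.31, 12.42 and 12.48, both stable, whereas Bmpr1b was at 8.63, 7.83 and 9.52. Tgfbr2, the TGF-beta ligand-binding receptor, was at 3.73, 6.29 and 4.81 and under 4 on array 1.

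Notch, Hedgehog and Wnt receptors were at 4 or more on all arrays in 19 of 23 cases, against 56.3% of all genes. Notch1 was at 11.36, 11.52 and 11.52. Notch2 was at 8.95, 10.11 and 9.71 and Notch3 at 6.45, 7.78 and 7.80, both lowest on array 1. Hes1 and Hes5, which Notch activates, were at 6.56, 7.25 and 7.76 and at 10.32, 9.65 and 10.33, and 9 of 12 Notch targets and ligands were at 4 or more on all arrays. Ptch1, the Hedgehog receptor and itself a Hedgehog target, was at 11.92, 11.51 and 11.68, Smo, the transducer, at 8.28, 8.98 and 9.02, and Gas1, a co-receptor, at 11.60, 11.85 and 11.98. Cdon, another Hedgehog co-receptor, was at 8.24, 8.39 and 10.37, with array 3 high. Among the Wnt receptors Fzd3 was at 11.30, 11.44 and 11.48 and Lgr5, a receptor for R-spondins, at 8.56, 9.32 and 9.52. Fzd4 was at 4.64, 6.22 and 4.57, high on array 2. Fzd6 and Lrp5 were under 4.

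Transmitter receptors were present in part. Of 20 glutamate receptor subunit genes, 10 were at 4 or more on all arrays, against 56.3% of all genes. Grm5, a metabotropic receptor of immature astrocytes and neurons, was at 12.09, 11.75 and 12.18, and Gria3, an AMPA receptor subunit, at 9.93, 9.61 and 9.74, both stable. Gria2 was at 11.03, 9.73 and 10.25, Grik3, a kainate receptor subunit, at 10.53, 8.29 and 9.56, and Grm3, another metabotropic receptor, at 10.64, 9.71 and 10.77, each lowest on array 2. Of 10 autosomal genes of the list with a mean of 4 or more, 5 were variable, against 7.64% of all such genes. Array 1 was highest in 4 of the 5, and array 2 was lowest in 4. Among all 786 variable genes array 1 was highest in 327 and array 2 lowest in 356. NMDA receptor subunits Grin2a, Grin2c and Grin2d were under 4, and Grin2b was at 4.04, 4.18 and 4.02. Of 20 GABA, glycine and acetylcholine receptor genes, 6 were at 4 or more on all arrays, against the same 56.3%. Gabrg1, a subunit known from glia and some neurons, was at 11.70, 11.46 and 11.56, and Glrb, the glycine receptor anchor subunit, at 10.40, 9.81 and 9.33. Gabra2 and Gabra3 were highest on array 1, at 6.78, 3.22 and 4.13 and at 6.02, 3.73 and 3.96.

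Of 30 G protein-coupled receptor genes for peptides, amines, lipids and chemokines, 10 were at 4 or more on all arrays, against 56.3% of all genes. F2r, the thrombin receptor, was at 12.61, 12.66 and 12.82, Adcyap1r1, the receptor for the neuropeptide PACAP, at 9.67, 9.89 and 10.13, and Ackr3, an atypical chemokine receptor, at 9.89, 9.66 and 10.20. These 3, and Ednrb named above, varied by less than 1 log2. Lpar4, a lysophosphatidic acid receptor, was at 8.92, 10.18 and 9.41, and Cnr1, the cannabinoid receptor, at 6.14, 7.31 and 5.94, both highest on array 2. Cxcr4, the chemokine receptor of migrating crest and neural cells, was at 3.84, 4.82 and 3.90. Dopamine, serotonin, opioid and somatostatin receptors of the list had means under 4 in every case. Over the lineage, regional and receptor lists together, 212 of 424 measured genes were at 4 or more on all arrays, against 56.3% of all genes.

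**Figure D3:**
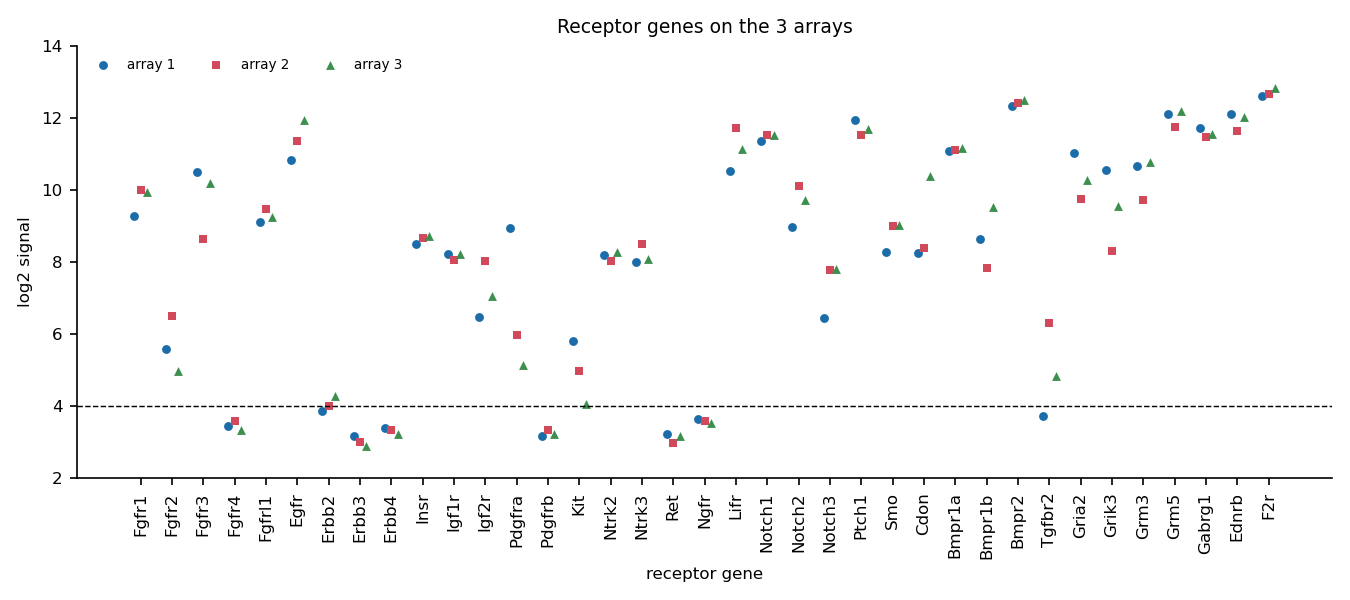
Log2 signal (vertical axis) of receptor genes on arrays 1, 2 and 3, each with its own marker, and the floor of 4 as a dashed line. Bmpr2, Grm5 and F2r stay together near 12, while Pdgfra, Fgfr3, Igf2r, Tgfbr2 and Grik3 spread over more than 1 log2.

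Proliferation transcripts had high signals on every array. All 21 measured cell cycle genes were at 4 or more on all arrays, against 56.3% of all genes. Of them 0 ranged over 1 log2, and their median range was 0.19. That is near the range of genes of like signal: the median mean of the list was 11.99, and the median range over all autosomal genes was 0.218 at means from 10 to 12 and 0.134 at 12 or more. Pcna, the replication clamp, was at 13.72, 13.73 and 13.66, Rrm2, a subunit of ribonucleotide reductase, at 13.27, 13.17 and 13.30, and Ccnd1, the growth-factor-driven cyclin, at 13.05, 12.83 and 13.10. Among 9 cell cycle exit genes, all were at 4 or more and 2 varied. Cdkn1c, an imprinted inhibitor of cyclin-dependent kinases, was at 9.91, 6.31 and 6.38, high on array 1, and Cdkn2a, an inhibitor that accumulates in cultured cells, at 5.78, 6.12 and 7.58, highest on array 3. All 15 sterol synthesis genes were at 4 or more, with Idi1 at 13.37, 13.34 and 13.48 and 1 variable gene, Dhcr7, at 8.82, 8.18 and 9.21.

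Metallothioneins, small proteins that bind zinc and copper and of which Mt1 and Mt2 are induced by metal, varied together. All 10 measured genes of the metallothionein and antioxidant list were at 4 or more on all arrays, against 56.3% of all genes. Of these, 4 ranged over at least 1 log2, against 7.64% of autosomal genes with a mean of 4 or more. Mt1 was at 13.26, 11.57 and 13.23 on arrays 1, 2 and 3 (SD 0.97), Mt2 at 12.31, 10.29 and 12.33 (SD 1.17) and Mt3, the brain form, at 9.35, 7.84 and 9.18 (SD 0.83). Array 2 was lowest in all 3, and arrays 1 and 3 lay close together. Nqo1, a quinone reductase of the oxidant response, was highest there, at 6.83, 8.54 and 7.41, and Txnrd1 and Gclc, of the same response, were stable. The probe set of Mt1 may also read related family members, since near-identical sequences are shared between metallothionein genes.

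The 3 metallothionein genes lie in the same cluster on chromosome 8, and their promoters are shown because the genes varied together. Capitals mark TGCNCNC, searched on both strands, with overlapping matches allowed. It is a looser form of the metal response element core, TGCRCNC, where R is A or G. Some marked runs, such as GGGAGCA, match the looser form only, and all counts are of that form. The windows (RefSeq, GRCm38.p6, plus strand, 250 bases before to 50 after the start) are chr8:94178839-94179138 for Mt1, chr8:94172368-94172667 for Mt2 and chr8:94152357-94152656 for Mt3. Mt1 held 3 matches, Mt2 6 and Mt3 3. Of 32851 promoters of the same length, 51.0% held at least 1 match, 7.1% at least 3 and 0.23% at least 6. A match is a run of letters and not a measured binding site.
Mt1: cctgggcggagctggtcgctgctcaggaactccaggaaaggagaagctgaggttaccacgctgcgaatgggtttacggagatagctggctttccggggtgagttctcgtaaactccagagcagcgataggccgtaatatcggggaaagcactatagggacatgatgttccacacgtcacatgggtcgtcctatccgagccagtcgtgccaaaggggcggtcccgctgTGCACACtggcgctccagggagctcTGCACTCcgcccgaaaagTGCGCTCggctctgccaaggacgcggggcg
Mt2: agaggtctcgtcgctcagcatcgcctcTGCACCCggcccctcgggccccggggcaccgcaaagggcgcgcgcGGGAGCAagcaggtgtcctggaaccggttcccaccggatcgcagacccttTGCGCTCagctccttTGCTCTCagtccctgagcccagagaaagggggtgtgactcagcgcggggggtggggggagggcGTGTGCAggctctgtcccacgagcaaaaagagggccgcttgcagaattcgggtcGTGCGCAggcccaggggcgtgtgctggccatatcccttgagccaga
Mt3: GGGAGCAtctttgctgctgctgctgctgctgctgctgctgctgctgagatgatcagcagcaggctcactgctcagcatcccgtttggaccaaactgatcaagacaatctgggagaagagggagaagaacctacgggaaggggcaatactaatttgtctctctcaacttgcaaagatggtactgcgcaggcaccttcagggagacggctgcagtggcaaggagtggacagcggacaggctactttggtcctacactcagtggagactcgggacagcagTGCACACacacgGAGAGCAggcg

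Other states were less marked or uniform. The counts of each list stand against 56.3% of all genes at 4 or more on all arrays. Of 19 immediate early genes, 14 were at 4 or more on all arrays, with Egr1 at 12.03, 11.47 and 11.99, Jun at 11.53, 11.43 and 11.95 and Fos at 10.27, 9.83 and 10.48, which were stable, while Nr4a1 and Dusp1 were lowest on array 2, at 7.00, 5.54 and 6.38 and at 9.07, 8.08 and 9.36. Of 20 hypoxia and glycolysis genes, 18 were at 4 or more. Ldha was at 13.03, 13.26 and 12.97, but Adm, a peptide hormone induced by low oxygen, was at 7.92, 4.41 and 9.17, with array 2 far lower, and Slc2a3, a glucose transporter, at 8.28, 6.75 and 7.57. Amino acid and unfolded protein stress genes gave 16 of 19, heat shock genes 7 of 9, and circadian clock genes 12 of 14, with 2, 0 and 0 variable members. Of 13 interferon response genes, 4 were at 4 or more on all arrays, B2m, which is made by most cells, at 12.12, 12.08 and 12.25, and Ifit2 at 8.08, 7.32 and 7.29 among them. Of 10 ciliated ependymal genes 2 passed, Ccdc39 at 5.67, 5.99 and 6.01 and Foxj1 at 4.51, 4.76 and 4.29, and of the sex chromosome genes 0 of 4 were at 4 or more on all arrays.

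Between the 3 arrays, 786 autosomal genes (7.64% of 10282 with a mean of 4 or more) ranged over at least 1 log2, 214 over at least 2 and 71 over at least 3. Values under 4 were set to 4 for this purpose, so that the range of a gene with such a value is a lower bound. The median SD was 0.16. The share of variable genes was 10.4% at a mean of 4 to 6, 11.9% at 6 to 8, 5.88% at 8 to 10, 2.80% at 10 to 12 and 0.813% above 12, so it did not follow the weakest signals alone. Array 2 was the one apart in 412 of the genes, 209 high and 203 low. Array 1 was apart in 270, 175 high and 95 low, and array 3 in 104, 47 high and 57 low. Array 2, which also had the highest hybridisation controls, was apart most often, and arrays 1 and 3 were the closest pair: 307 genes lay at least 1 log2 apart between arrays 1 and 3, 403 between arrays 2 and 3 and 613 between arrays 1 and 2. Whether the control signals bear on this was not tested. Without array 2 the count of variable genes was 310, without array 1 409 and without array 3 623. Each is in effect the count of the remaining pair of arrays. Of 342 variable genes with another bright probe set, 191 had one that ranged over 1 log2 in the same pattern, and of 532 such other probe sets 402 had the same array apart in the same direction.

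**Figure D4:**
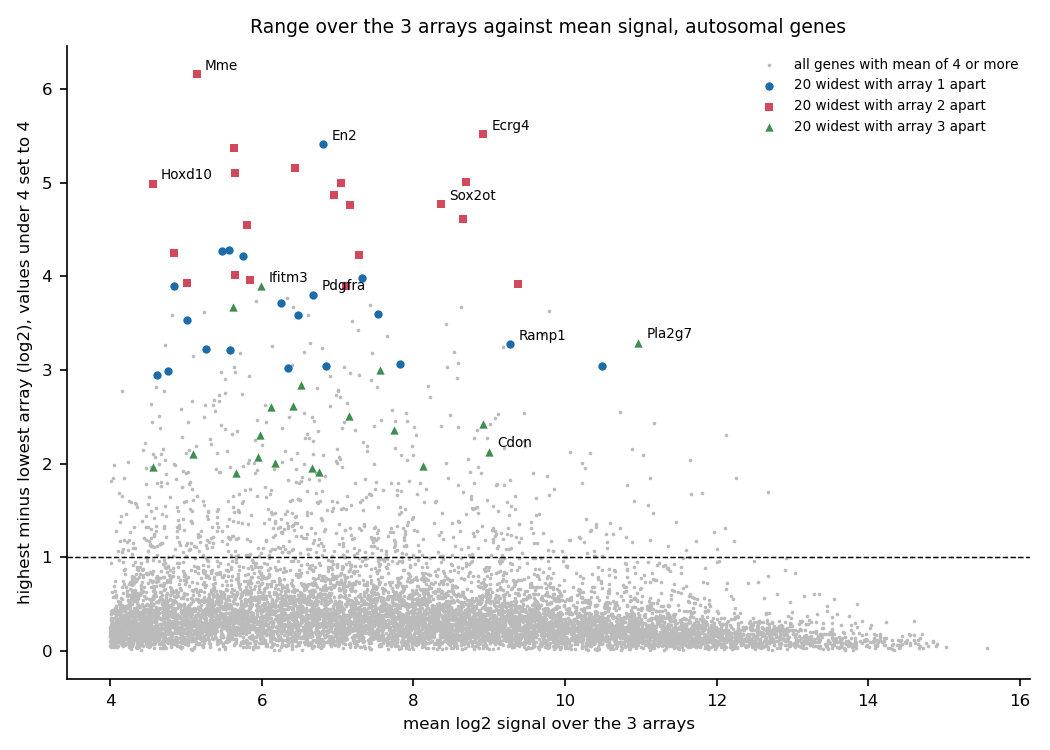
Range over the 3 arrays (highest minus lowest log2 value, vertical axis, values under 4 set to 4) against mean log2 signal (horizontal axis) for the 10282 autosomal genes with a mean of 4 or more; coloured markers are the 20 widest genes for each array that stood apart, and the dashed line is 1 log2. Wide ranges are found mainly at means between 4 and 10, and the widest is that of Mme with array 2 apart.

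Several of the widest differences set array 2 apart. Mme, the surface peptidase neprilysin, was at 2.63, 10.16 and 2.63 on arrays 1, 2 and 3, a range of at least 6.16 log2. Its other probe set had a mean under 4, and with both averaged the range was 2.67, below that of Ecrg4 at 5.04. Ecrg4, a secreted protein of choroid plexus and progenitors, was at 6.61, 12.13 and 8.01, and Tgfbi, a matrix protein induced by TGF-beta, at 3.47, 9.38 and 4.07. Ecrg4 and Tgfbi have other bright probe sets with array 2 high. Meox2, a mesodermal homeodomain factor, was at 3.96, 7.93 and 3.16 and Nkain2, a sodium pump partner, at 4.81, 9.68 and 6.37. Among the genes low on array 2, Ctsz, a lysosomal protease, was at 9.16, 3.50 and 6.66, Pcdh15, a cadherin of hair cells and oligodendrocyte progenitors, at 10.98, 5.97 and 9.14, and Vit, a matrix protein, at 8.99, 3.37 and 8.77. Sox2ot, a long RNA whose gene spans Sox2, was at 9.77, 5.27 and 10.04, while Sox2 itself was at 13.76, 13.49 and 13.68, so that the range was 4.77 for the RNA and 0.27 for the gene within it. Mir9-3hg, the host RNA of a neural microRNA, was low on array 2 as well, at 9.68, 6.61 and 9.48.

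Array 1 stood apart with En2 and Foxc1 low and a larger number of genes high. Moxd1, a monooxygenase-like protein, was at 8.31, 4.35 and 4.03, Scg5, a protein of secretory granules, at 8.46, 4.55 and 4.25, and Ramp1, a receptor partner for the peptide CGRP, at 11.04, 7.77 and 9.01. Grb10, an imprinted adaptor that dampens insulin signalling, was at 9.32, 5.34 and 7.29 and Brinp3, a neural inhibitor of cell division, at 9.67, 6.60 and 7.18. In these genes array 1 was the highest, and arrays 2 and 3 were close together in Moxd1 and Scg5 and apart in Grb10. Smim20, a small mitochondrial membrane protein, was at 8.27, 2.67 and 5.49. Array 1 is also the array with Xist and without Y-linked transcripts, so the sex of the cells and any other difference of that culture cannot be told apart.

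Array 3 stood apart least often. Ifitm3, a membrane protein that restricts viruses, was at 7.90, 6.91 and 3.14, the only array under the floor being array 3. Col5a2, a fibrillar collagen, was at 4.67, 4.26 and 7.94, with its second probe set at 4.61, 4.16 and 7.28. Pla2g7, a secreted lipase, was at 11.11, 12.54 and 9.24, and Opcml, an adhesion molecule, at 7.77, 8.96 and 5.95, both low on array 3. Nell2, a neuronal secreted protein, was at 5.76, 5.43 and 8.04, and Wdfy1, an endosomal adaptor, at 8.17, 8.08 and 10.50, both high there, and all 3 bright probe sets of Wdfy1 were highest on array 3. Pou3f1, a POU factor of Schwann cells and progenitors, was low on array 3 at 8.80, 8.76 and 6.83, and Ugt8a, an enzyme of myelin lipid synthesis, at 8.86, 7.85 and 6.51.

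**Figure D5:**
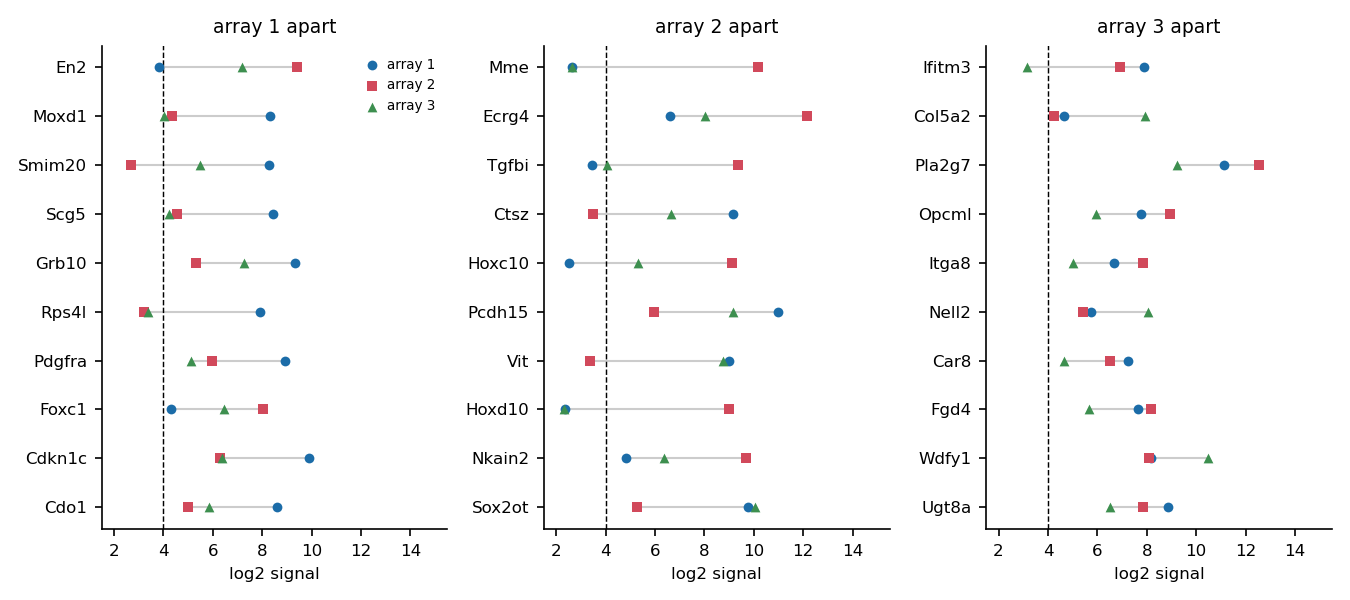
Log2 signal (horizontal axis) on arrays 1, 2 and 3 of the 10 autosomal genes with the widest range in each pattern, by the array that stood apart; grey lines join the lowest and highest array and the dashed line is the floor of 4. Mme and Hoxd10 are under 4 on arrays 1 and 3 and near 10 and 9 on array 2.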

How the data were processed

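Total RNA was labelled from 500 ng per sample and hybridised to Affymetrix mouse expression arrays, per the labels' protocols. The authors deposited log2 values for 45101 probe sets. The tool named in the submitters' processing notes is GCRMA (a method that corrects background, normalizes by quantiles and summarises probes), without its version. That the scale is log2 was read from the values (1.22 to 15.58). Since normalization equalises the arrays, a global shift in 1 culture could not be seen. GCRMA compresses weak probe sets below about 4.

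Arrays were grouped by title. The platform annotation gave a single symbol to 34958 probe sets, several to 932, which were dropped, and no name to 9211. RefSeq (GRCm38.p6) gave chromosomes and promoters and changed 0 symbols. Each gene was read from its brightest probe set on these 3 arrays. The range is the highest minus the lowest array, with values under 4 set to 4. The array apart is the one farther from the middle value. With a single group of arrays no test was made. Python 3.11.15, pandas 2.3.3, numpy 2.4.6 and matplotlib 3.10.9 were used, and the range step, tested on simulated data, recovered its planted genes.

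The members and the 50 gene lists (738 genes, of which 57 symbols were not analysed here) were chosen with earlier results of these data known, so a list's count is no independent evidence. Named were the 5 markers, the 20 highest signals with and without the machinery of translation, tubulins and actins, any member of the lineage, regional and receptor lists, up to 4 members by mean and 4 by range of the other lists, up to 10 genes per array apart, Xist and the Y-linked genes. Col1a1, Ptprc, Pecam1, Cnpy1, Hoxb5os, Mir9-3hg and the genes of the closing observations were chosen after their values were seen. The alternatives covered the floor, the choice of probe set, centring, quantile normalization, the filters and each array left out.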

Additional observations from a re-analysis of the deposited data

How the results depend on the processing

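With the floor at 3 in place of 4, 332 of the 424 listed lineage, regional and receptor genes were at or above it on all arrays, against 212 at 4. With the floor at 6, 461 genes ranged over at least 1 log2 in place of 786, all of them among the 786, and with all probe sets of a gene averaged 497 did, of which 483 were shared. Leaving out an array in turn gave between 310 and 623 variable genes, and the lowest count was without array 2. The range is then the difference of the remaining pair of arrays, so these counts largely repeat those of the pairs, 307 to 613. Of the 100 highest signals, 27 were shared when probe sets that can read several transcripts (suffix _s_at, _x_at or _a_at) were dropped, and 46 when probe sets were averaged. Leaving out an array kept between 96 and 99 of the 100. It asks for 4 on only the other pair of arrays, and the counts at 4 or more were then larger, at 218 to 221 listed genes against 212 and 10354 to 10405 genes against 10241. Median centring and quantile normalization moved no count by more than 1.5 times. No paired analysis was possible because no test between groups was made. The 3 arrays show how far this culture varied and allow no estimate beyond them. Signals near the floor limit what can be said of weak genes: one listed under 4 was not detectable at this floor, which is not absence.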

Other observations

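Imprinted genes, which are expressed from the maternal or the paternal copy only, were looked up after the values had been seen. Of 23 such genes, 13 were at 4 or more on all arrays, a share close to the 56.3% of all genes, 2 on some and 8 on none. Of the 13 at 4 or more on all arrays, 4 ranged over at least 1 log2, against 6.85% of all such autosomal genes. Mest, a paternally expressed hydrolase gene, was at 13.14, 13.25 and 13.19 on arrays 1, 2 and 3, Ndn, a growth suppressor of neurons, at 13.69, 13.08 and 13.09, Nnat, a neuronal membrane protein, at 11.72, 11.45 and 11.56, and Peg3, a zinc finger gene, at 10.86, 10.68 and 11.10. The maternally expressed RNA Meg3 and its neighbours Rian and Mirg had means of 3.73, 3.40 and 3.44, and Igf2, the fetal growth factor, was at 3.65, 4.10 and 3.51. The 4 variable genes fell into pairs. Cdkn1c and Grb10 were highest on array 1, as described above, while Igf2r, at 6.47, 8.03 and 7.04, and Airn, the RNA transcribed across it from the opposite strand, at 4.83, 6.15 and 5.02, were highest on array 2.

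X-linked genes with a Y-linked partner were a little higher on the array with Xist. Eif2s3x was at 13.31, 12.80 and 12.79, Kdm5c at 8.26, 7.71 and 7.74, Ddx3x at 14.22, 13.93 and 13.99 and Kdm6a at 10.13, 9.67 and 9.22, with array 1 highest in each. These genes were chosen after the values had been seen. Usp9y, another Y-linked gene, was under 4 on all 3 arrays, at 2.74, 2.67 and 2.60.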
